A study of Mus musculus with 18 samples.

Results

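The genes described are 41 broadly expressed protein-coding genes of mouse chromosome 11, listed by name, out of 22305 protein-coding gene names in the deposited table. They were chosen for their ratio in 2 of the 3 control clones, D3 and E8, to the other clones, so that ratio is given as a description and without a test. All 41 passed a filter of a mean of at least 1 over the 18 libraries, which 10400 protein-coding genes passed. Of these, 800 were other genes of chromosome 11 and 9532 lay on other chromosomes. The 41 genes run from Actr2 (chr11:20062304-20112913) to Arhgdia (chr11:120578104-120581624) in GENCODE M21 on GRCm38. The question was which of them follow the level of their chromosome in D3 and E8 and which do not.

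Most genes of a diploid cell can be transcribed from a maternal and a paternal copy. The gain or loss of a chromosome in a cultured clone changes the number of templates of every gene on it at once. RNA of many genes scales with the number of copies, while other genes keep their level through feedback on transcription or RNA decay, which is called buffering or dosage compensation. Housekeeping genes, whose products are needed in every cell, are read here because most of them hold a steady level between cell types. DNA copy number was not measured here, so the ratios are ratios of RNA only.

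The cells were clonal lines of oligodendrocyte progenitor cells (OPCs), the dividing glial cells that form myelinating oligodendrocytes, derived from primary mouse neural stem cells. The control group was the clones D7, D3 and E8, and the Thap1 null group the clones 3F, D6 and 7F. Thap1 encodes a DNA-binding transcription factor of the zinc-finger kind; how it was inactivated is not given in the sources used here. Each clone gave 1 library as OPCs (day 0, growth medium with PDGF-AA) and 1 each after 2 and 4 days in oligodendrocyte differentiation medium with the thyroid hormone T3 (DIV2 and DIV4), so each genotype and stage held 3 libraries. The labels do not say whether the clones of a genotype came from separate animals, and p-values therefore measure the spread between these clones. Values are rescaled TPM: the deposited TPM (relative transcript abundance corrected for length, to a fixed total per library) of the protein-coding transcripts, summed by gene and divided by a median-of-ratios factor per library. Clone values are always given in the order D7, D3, E8, 3F, D6 and 7F. TPM keeps no sequencing depth, so depth is unknown.

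Several libraries stood apart before any of the 41 genes was considered. Protein-coding transcripts held 5.05% to 9.0% of the deposited TPM of control OPCs and 19.1% to 38.8% in the other libraries, and the control OPC factors were 0.127 to 0.324 against 0.727 to 2.05 elsewhere. Coding Thap1 read 3.32 to 4.38 in control and 0.482 to 0.772 in null OPCs, 1.93 to 2.78 and 0.343 to 0.686 at DIV2, and 2.25 to 3.79 and 0.196 to 0.752 at DIV4. All 5 OPC markers (Pdgfra, Cspg4, Sox10, Olig1 and Olig2) were above 1 in every OPC library, and the oligodendrocyte markers Mbp, Mag, Mog and Myrf in every DIV2 and DIV4 library. The 5 proliferation genes summed to 20.9 in control D3 and to 249 to 334 in the other OPC libraries. The 4 astrocyte markers summed to 1.64 in D7 at DIV4 and to 85.5 to 315 in the other 5 clones. Summed neuron markers reached at most 4.40, microglia markers 0.753 and mesenchymal markers 1.03 in any library.

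The promoters of 4 genes are printed as examples. Canx is 1 of 21 members low in D3 and E8 at every stage and does not stand at an end of the range. Sparc had the lowest median ratio, and Actg1 and Flot2 did not follow the other genes. Each line gives the 250 bases before the RefSeq start on the gene's own strand (GRCm38.p6), 5′ to 3′. Capitals mark the GC box GGGCGG and the CCAAT box, on either strand, with overlapping matches counted.
Canx: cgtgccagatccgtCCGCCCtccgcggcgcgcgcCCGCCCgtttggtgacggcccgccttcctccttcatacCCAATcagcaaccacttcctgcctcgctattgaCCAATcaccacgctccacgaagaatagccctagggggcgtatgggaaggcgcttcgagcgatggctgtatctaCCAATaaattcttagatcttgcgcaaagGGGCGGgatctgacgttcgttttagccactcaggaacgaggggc
Actg1: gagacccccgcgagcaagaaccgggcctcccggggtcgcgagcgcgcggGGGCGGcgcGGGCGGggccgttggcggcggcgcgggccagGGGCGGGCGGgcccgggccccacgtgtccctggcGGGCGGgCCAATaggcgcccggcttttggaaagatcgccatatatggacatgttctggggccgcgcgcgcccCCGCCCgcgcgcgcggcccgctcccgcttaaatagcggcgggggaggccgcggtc
Flot2: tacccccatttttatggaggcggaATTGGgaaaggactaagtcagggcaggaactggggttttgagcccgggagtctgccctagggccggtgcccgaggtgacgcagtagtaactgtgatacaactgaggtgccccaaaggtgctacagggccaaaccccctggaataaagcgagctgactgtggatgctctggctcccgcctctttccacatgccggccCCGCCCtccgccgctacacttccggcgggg
Sparc: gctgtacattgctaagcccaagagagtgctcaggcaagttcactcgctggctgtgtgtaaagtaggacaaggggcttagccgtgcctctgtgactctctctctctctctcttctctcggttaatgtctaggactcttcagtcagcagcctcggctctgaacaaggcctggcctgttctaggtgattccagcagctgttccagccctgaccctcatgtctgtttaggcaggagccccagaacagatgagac
The stretches lie at chr11:50325674-50325923 (minus strand), chr11:120348496-120348745 (minus), chr11:78037681-78037930 (plus) and chr11:55420081-55420330 (minus). Canx held 3 GC boxes and 3 CCAAT boxes, Actg1 held 6 and 1, Flot2 held 1 of each, and Sparc held none of either. RefSeq windows of 300 bases, 250 before the start and 50 after, matched 40 of the 41 genes; Cct4 was not matched. GGGCGG stood in 28 of the 40 (70%) against 35.6% of 27025 genes, CCAAT in 19 (47.5%) against 37.8%, and the TATA box TATAAA in 5 (12.5%) against 14.1%. The THAP1 recognition motif TNNNGGCA stood in 14 (35%) against 42.0%, and the YY1 motif AAGATGGC in 2 (5.0%) against 2.86%. The median G and C content was 64.2% against 52.7%. A match describes letters in the window, not a bound site. Where a gene had several windows, a member's was the one nearest its GENCODE start. For the 27025 genes it was the one of lowest coordinate. Those genes were not limited to genes past the filter, so the member and background shares are not matched.

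Most of the 41 genes read lower in control D3 and E8 than in control D7 and the 3 null clones, at every stage. For each gene and stage, the value in D3 or E8 was divided by the mean of D7, 3F, D6 and 7F, and a gene is called low in a clone when that mean was at least 1.2 times the clone's value, a ratio of 0.833 or less. The median ratio of the 41 genes was 0.581 in D3 and 0.701 in E8 at the OPC stage, 0.701 and 0.763 at DIV2, and 0.671 and 0.654 at DIV4. For orientation, 2 gene copies against 3 would give 0.667 if RNA followed copies. Other copy numbers would give other ratios, and copy number was not measured. In bulk RNA, fewer cells carrying a level and less RNA per cell cannot be told apart. The D3 OPC values stand beside that library's low proliferation genes, whose part in the ratio was not tested.

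Counted gene by gene, 29 of the 41 were low in both D3 and E8 at the OPC stage, where 16.8% of all tested genes were. At DIV2 the count was 28 against 17.4%, and at DIV4 it was 31 against 20.0%. A ratio of at least 1.2 in both clones was found for 0 members at the OPC stage (14.4% of all genes), for 1 at DIV2, Flot2 (11.3%), and for 0 at DIV4 (13.0%). Both clones lay below all 4 other clones for 26 members at the OPC stage (13.1% of all genes), 31 at DIV2 (14.4%) and 26 at DIV4 (15.9%). At all 3 stages together this held for 18 members (2.69% of all genes), among them Canx, Cct4, P4hb, Eif5a, Cltc and Kpnb1. Because the genes were picked on this contrast, nothing is read from these counts.

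Over the 6 ratios of a gene (2 clones at 3 stages), 21 genes were low in all 6, 7 in 5 and 7 in 4. The remaining 6 were Sumo2 (3 of 6), Xpo1 and Stat3 (2 each), Srsf2 and Actg1 (1 each) and Flot2 (none). Without the OPC libraries, 24 genes were low in all 4 remaining ratios and 3, Xpo1, Srsf2 and Flot2, in none. By the median of its 6 ratios a gene lay at or under 0.833 in 36 cases and at or above 1.2 in 1. Just inside that limit lay Spop (0.812) and Sumo2 (0.832), and just outside it Xpo1 (0.856). Low ratios per gene were counted only for the members and for the partner genes listed below, not for the rest of chromosome 11. These counts, here and by gene role below, therefore describe the members. They cannot say whether so many low genes, or so few exceptions, are unusual for chromosome 11.

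**Figure D1:**
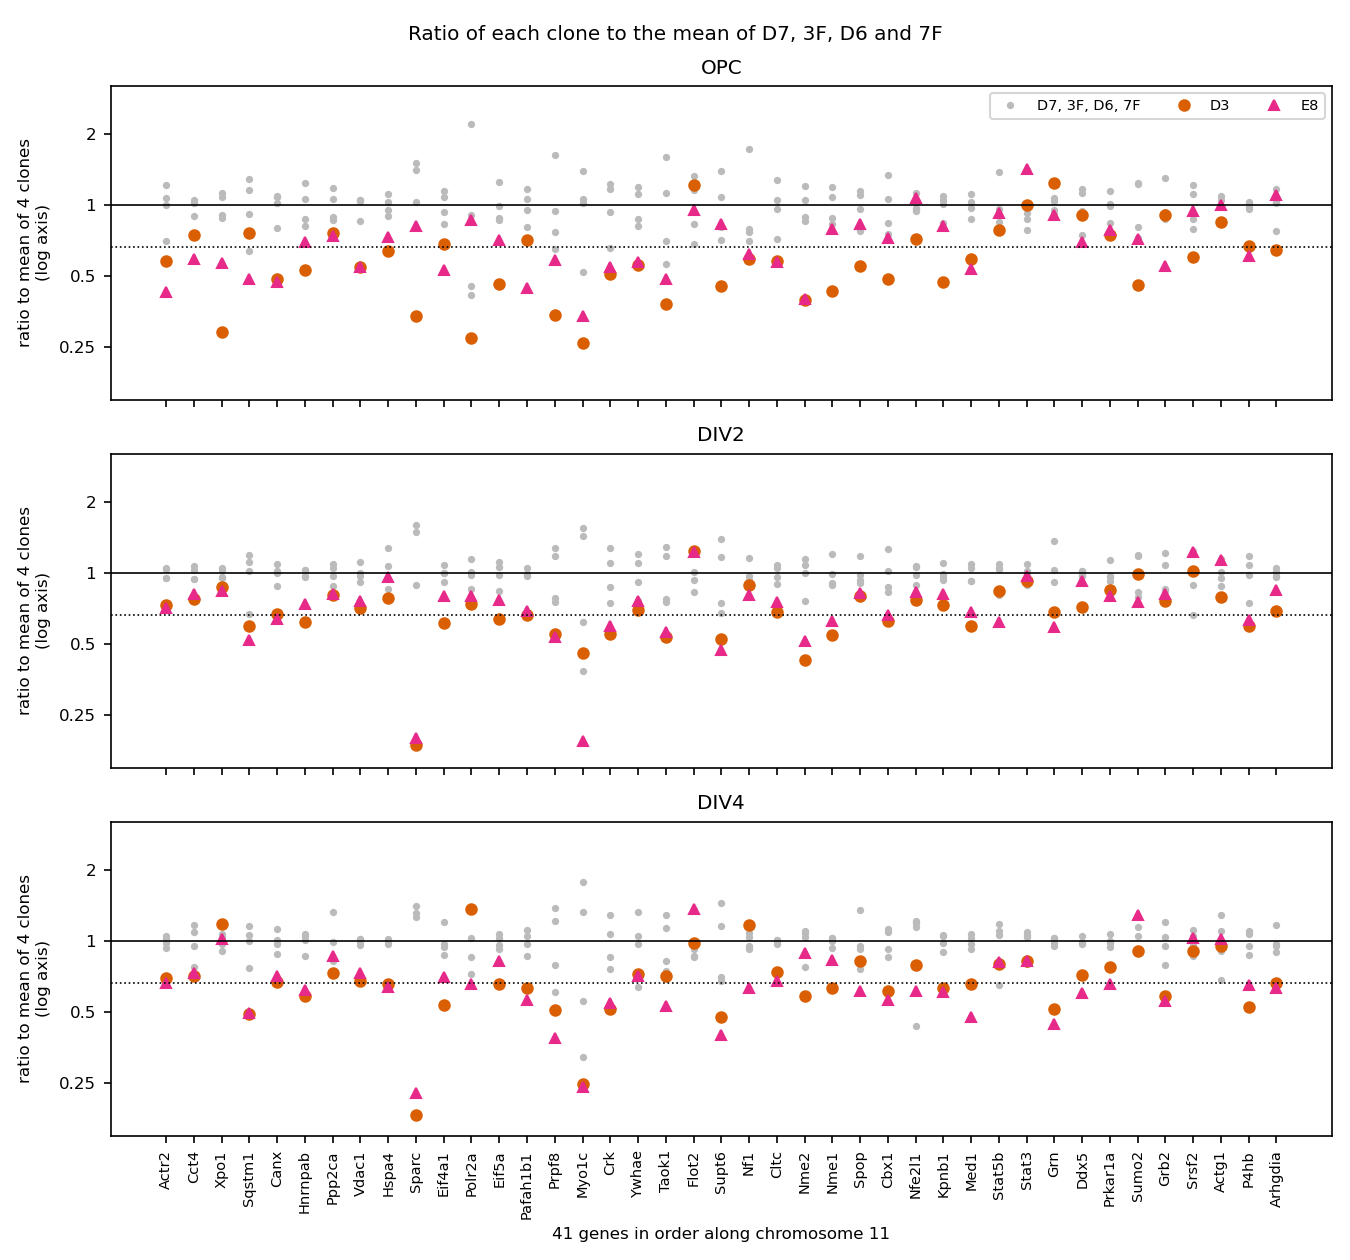
Ratio of each clone to the mean of D7, 3F, D6 and 7F (log axis) for the 41 genes in their order along chromosome 11, with 1 panel per stage. Circles are D3, triangles E8 and grey points the 4 clones that form the mean; the solid line is 1 and the dotted line 0.667. Most D3 and E8 symbols lie under the grey points, and those of Flot2, Stat3, Srsf2 and Actg1 lie near or above 1 in most panels.

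The rest of the chromosome also read lower in D3 and E8. The median ratio of the 800 other chromosome 11 genes was 0.725 in D3 and 0.678 in E8 at the OPC stage, 0.693 and 0.694 at DIV2, and 0.647 and 0.655 at DIV4. Of these, 363 (45.4%), 544 (68.0%) and 550 (68.8%) were low in both clones as OPCs, at DIV2 and at DIV4. On other chromosomes 14.2%, 12.9% and 15.7% of the genes were. Among the members, which were picked on this contrast, the shares were 70.7%, 68.3% and 75.6%, most above the other chromosome 11 genes as OPCs. Over all its genes, chromosome 11 had medians of 0.717, 0.693 and 0.649 in D3 and 0.681, 0.695 and 0.654 in E8. The medians of the 18 other autosomes ran from 0.847 to 1.13 in D3 and from 0.864 to 1.07 in E8. In D7 and the null clones chromosome 11 lay between 0.938 and 1.05. Under the TPM as deposited the members' DIV4 medians turned to 1.06 in D3 and 1.02 in E8. The median of all genes was then 1.48 and 1.52, and relative to it the members stood at 0.714 and 0.674.

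**Figure D2:**
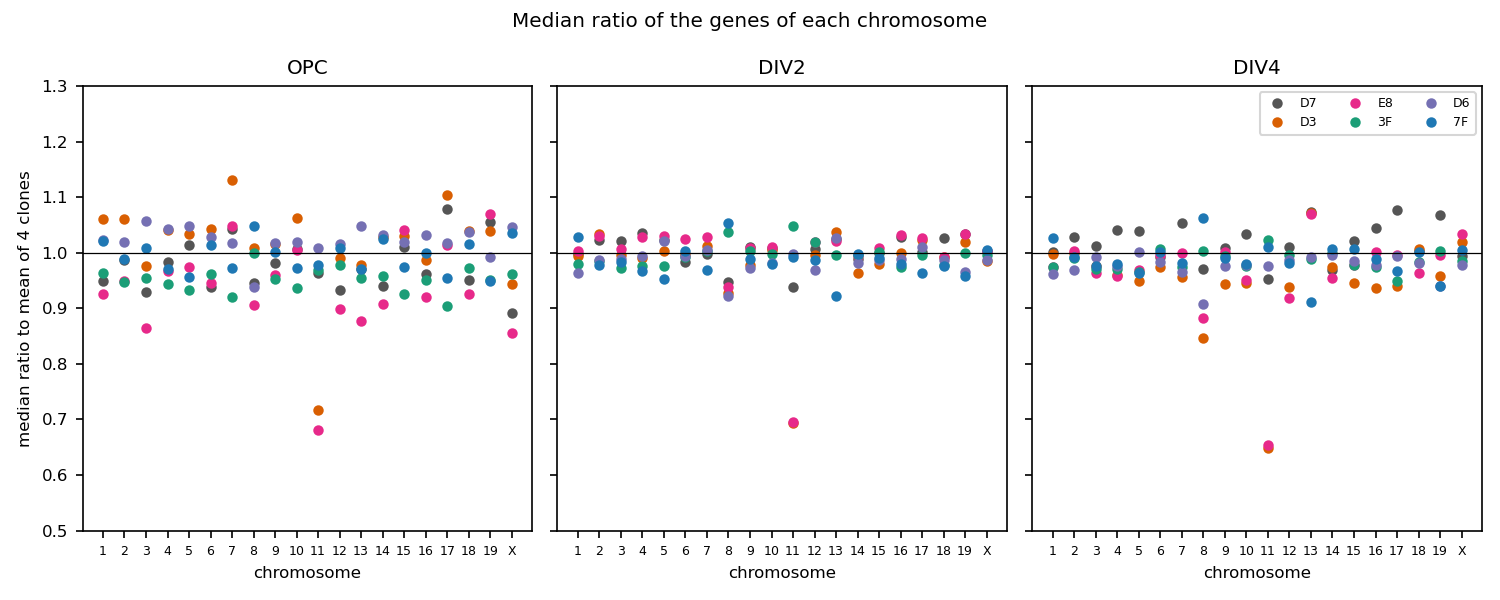
Median ratio to the mean of D7, 3F, D6 and 7F over the genes of each chromosome (horizontal axis), with 1 panel per stage and 1 point per clone. The D3 and E8 points of chromosome 11 lie at 0.649 to 0.717, below every other autosome's median in any clone.

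All 4 chaperones and secretory folding enzymes were low in at least 4 of 6 ratios. Canx (chr11:50293961-50325673), the membrane-bound lectin chaperone of the endoplasmic reticulum, read 103 in D7, 62.9 in D3, 61 in E8 and 132 to 141 in the null clones as OPCs. At DIV4 it read 118, 89.3, 95, 149.7, 129.8 and 135 in the 6 clones. D3 and E8 lay below every other clone at each stage, and the median ratio (with the lowest and highest of the 6) was 0.654 (0.472 to 0.714). P4hb (chr11:120560298-120573253), a protein disulfide isomerase, had 0.624 (0.526 to 0.670). Cct4 (chr11:22990519-23003780), a subunit of the ring-shaped chaperonin that folds actin and tubulin, had 0.739 (0.592 to 0.814). Hspa4 (chr11:53259814-53300457), a partner of Hsp70 chaperones, had 0.698 (0.640 to 0.962); E8 at DIV2 (0.962) was its exception. Its relatives Hspa8, Hspa9 and Hsph1, on other chromosomes, had medians of 0.537, 0.810 and 1.04, Hspa8 being low in 5 of 6. The other subunits of the Cct4 chaperonin are encoded elsewhere: Tcp1 (chromosome 17) had a median of 0.924, Cct2 (chromosome 10) 0.958 and Cct3 (chromosome 3) 1.04. Calr, the soluble relative of Canx on chromosome 8, read 0.647, low in 5 of 6 although it lies on another chromosome.

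Both translation factors were low in all 6 ratios. Eif4a1 (chr11:69666936-69672423), the RNA helicase that opens messenger RNA for the ribosome, had a median of 0.651 (0.532 to 0.801), and Eif5a (chr11:69916714-69921958), which helps the ribosome past stalling sequences, 0.685 (0.464 to 0.825). At DIV4 Eif4a1 read 154 in D3 and 201 in E8 against 250.1 to 343 in the other clones. The Eif4a1 relative Eif4a2 and the Eif4a1 partners Eif4e and Eif4g1, on other chromosomes, had medians of 1.08, 0.942 and 1.05.

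Of the 4 RNA-processing genes, 3 were low in at least 4 ratios. Prpf8 (chr11:75486816-75509449), the scaffold at the heart of the spliceosome, had one of the 6 lowest medians, 0.523 (0.344 to 0.584). Prpf8 read 32.9, 14.7, 25, 70, 27.9 and 40.7 at the OPC stage, 22.8, 16.7, 16.2, 38.6, 23.8 and 35.8 at DIV2 and 22.1, 18.5, 14.1, 50, 28.7 and 44.1 at DIV4. D3 and E8 were the lowest clones at each stage, and 3F was the highest, at 2.13, 1.70 and 2.26 times D7 at the 3 stages. The Prpf8 partners Snrnp200, Eftud2 (itself on chromosome 11) and Snrnp40 had medians of 0.949, 0.828 and 0.909. Hnrnpab (chr11:51600100-51606847), an RNA-binding protein that packages new transcripts, was low in all 6, with a median of 0.620 (0.532 to 0.743). Hnrnpab read 174, 74.2, 97.5, 114, 148 and 121 at the OPC stage, 95.8, 57.5, 68.8, 89.9, 89 and 95.8 at DIV2 and 67.9, 37.2, 39.4, 67, 54.9 and 63.9 at DIV4. D3 and E8 lay below the other 4 clones at each stage. Ddx5 (chr11:106780355-106789185), an RNA helicase, had 0.722 (0.603 to 0.927).

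Srsf2 (chr11:116849901-116853094), a splicing factor of the serine- and arginine-rich family, did not follow them, with a median of 0.983 (0.604 to 1.23). Srsf2 read 81.5, 40.4, 63.2, 58.6, 74.4 and 53.2 at the OPC stage, 44.7, 38, 45.9, 24.7, 46.3 and 33 at DIV2 and 30.7, 25, 28.1, 26.3, 23.7 and 28.8 at DIV4. Only D3 as OPCs was low, and at DIV2 and DIV4 D3 and E8 lay within the range of the other clones. Against D7 alone the median of its 6 ratios was 0.832. Its family members Srsf1 (chromosome 11), Srsf3 (17) and Srsf5 (12) had medians of 0.951, 1.17 and 0.758.

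Among the 6 genes of transcription and chromatin, 5 were low in at least 4 ratios. Supt6 (chr11:78206746-78245987), a histone chaperone that travels with elongating RNA polymerase II, had a median of 0.474 (0.399 to 0.834). Supt6 read 11.1, 6.24, 11.4, 19.1, 9.75 and 14.9 at the OPC stage, 11.5, 8.93, 7.97, 23.6, 12.7 and 19.9 at DIV2 and 12.8, 8.96, 7.48, 27.3, 13.3 and 21.7 at DIV4. E8 as OPCs (11.4) was above D7 (11.1), while at DIV2 and DIV4 both clones lay below all others. Its partners Supt5, Supt4a (on chromosome 11) and Iws1 had medians of 0.968, 0.524 and 0.828. Med1 (chr11:98152154-98193293), a subunit of the Mediator coactivator, was low in all 6 at 0.595 (0.478 to 0.688). Its partners Med4, Med6 and Med7 (on chromosome 11) read 0.971, 0.802 and 0.783.

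Cbx1 (chr11:96789127-96808640), a heterochromatin protein that binds methylated histone H3, was also low in all 6, at 0.622 (0.485 to 0.725). Cbx1 read 13.9, 5.05, 7.56, 7.87, 11.1 and 8.79 at the OPC stage, 4.61, 3.48, 3.67, 7.0, 4.85 and 5.66 at DIV2 and 7.34, 4.01, 3.68, 6.01, 5.61 and 7.11 at DIV4. D3 and E8 had the lowest values at every stage. Its relatives Cbx3 and Cbx5 had medians of 0.946 and 1.25. Polr2a (chr11:69733997-69758637), the largest subunit of RNA polymerase II, was uneven at 0.770 (0.273 to 1.37): 3F as OPCs read 16.6 where the other clones read 2.05 to 6.85.

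The STAT factors carry cytokine signals to the nucleus. Stat5b (chr11:100780731-100850724) had a median of 0.809 (0.622 to 0.931). Stat5b read 6.80, 3.85, 4.56, 4.74, 4.16 and 3.90 at the OPC stage, 2.22, 2.33, 1.72, 3.03, 2.88 and 2.90 at DIV2 and 2.31, 2.83, 2.89, 4.17, 3.75 and 3.90 at DIV4. D3 and E8 overlapped the other clones at each stage. Stat3 (chr11:100885098-100939540), the factor known for driving astrocyte genes in neural progenitors, had a median of 0.950 (0.822 to 1.43) and is among the 6 highest. Stat3 read 47.8, 34.1, 48.6, 31.6, 29.7 and 26.8 at the OPC stage, 34.1, 32.1, 33.5, 37.9, 30.9 and 35.3 at DIV2 and 36.9, 38, 37.9, 50.6, 49 and 47.9 at DIV4. At DIV2 all 6 clones lay between 30.9 and 37.9, and at DIV4 the 3 controls, D7 included, lay between 36.9 and 38 and the null clones between 47.9 and 50.6. D3 at DIV4 was 0.823 times the mean of the 4 clones and 1.03 times D7.

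Of the nuclear transport receptors, Kpnb1 was low throughout and Xpo1 at 1 stage. Kpnb1 (chr11:97159714-97187881), the importin that carries proteins into the nucleus, had a median of 0.683 (0.474 to 0.819). Its cargo adaptors Kpna1, Kpna2 and Kpna3 had medians of 1.06, 0.107 and 1.13; Kpna2 is on chromosome 11. Xpo1 (chr11:23256041-23298249), the main exportin, had a median of 0.856 (0.291 to 1.18). Xpo1 read 43.4, 13.9, 27, 53.6, 51.7 and 41.9 at the OPC stage, 22.4, 18.9, 18.3, 20.7, 22.8 and 21 at DIV2 and 18.6, 22.5, 19.5, 19.9, 20.5 and 17.3 at DIV4. As OPCs D3 (0.291) and E8 (0.568) were low. At DIV2 D3 (18.9) and E8 (18.3) were again the lowest clones, without passing the limit for low, while at DIV4 the ratios were 1.18 and 1.02. Of the nuclear transport genes listed beside Xpo1 on other chromosomes, Cse1l (0.419 and 0.495) and Ran (0.633 and 0.654) were low in D3 and E8 as OPCs. Xpot (1.32 and 1.01) was not.

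All 7 signalling genes were low in at least 4 ratios. Crk (chr11:75679259-75706908), an adaptor of tyrosine kinase signals, kept the narrowest range of the group, 0.547 (0.511 to 0.597). As OPCs it read 34.2, 26.5, 28.2, 60.8, 48.4 and 63.8, with D3 and E8 the lowest. Its relative Crkl, on another chromosome, had a median of 1.18. Taok1 (chr11:77529162-77607815), a stress-activated kinase, had 0.534 (0.380 to 0.710), Ywhae (chr11:75732869-75765845), a 14-3-3 adaptor, 0.705 (0.557 to 0.763), and Grb2 (chr11:115644045-115708597), which links growth factor receptors to Ras, 0.675 (0.553 to 0.907). Ppp2ca (chr11:52098681-52127778), the catalytic subunit of protein phosphatase 2A, had 0.784 (0.736 to 0.864), and Prkar1a (chr11:109649405-109669656), the regulatory subunit of protein kinase A, 0.782 (0.656 to 0.847). Nf1 (chr11:79339693-79581612), which turns off Ras, had 0.722 (0.589 to 1.17), with D3 at DIV4 (1.17) above 1. The 5 listed relatives of Ywhae lie on other chromosomes: Ywhab, Ywhag, Ywhah and Ywhaz had medians of 1.03, 1.03, 1.53 and 1.06, and Ywhaq had 0.766 and was low in 5 of 6. The Grb2 partners Sos1 and Gab1 had medians of 1.01 and 0.720, Gab1 being low in 5 of 6.

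The 7 cytoskeleton and trafficking genes held both a very low gene and the highest one, and 5 were low in at least 4 ratios. Myo1c (chr11:75650504-75673910), an unconventional myosin, had the second lowest median, 0.256 (0.194 to 0.458). Myo1c read 4.75, 1.22, 1.58, 6.50, 2.42 and 4.92 at the OPC stage, 1.53, 1.82, 0.771, 6.16, 2.46 and 5.73 at DIV2 and 1.46, 1.12, 1.09, 8.07, 2.52 and 5.98 at DIV4. At DIV2 D3 (1.82) lay above D7 (1.53), so the low ratio there rests on 3F and 7F. Actr2 (chr11:20062304-20112913), part of the Arp2/3 complex that branches actin filaments, was low in all 6 at 0.681 (0.428 to 0.732). Actr2 read 23.8, 19.5, 14.4, 36, 40.8 and 33.6 at the OPC stage, 44.9, 31.2, 30.5, 44.4, 40.5 and 40.7 at DIV2 and 35.9, 24.6, 23.4, 37.2, 33.1 and 34.7 at DIV4. D3 and E8 were the lowest clones at each stage. Its partners Actr3, Arpc1a and Arpc1b had medians of 1.05, 0.970 and 0.928.

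Cltc (chr11:86694351-86757565), the clathrin heavy chain, was low in all 6 at 0.681 (0.573 to 0.754), where the light chains Clta and Cltb, on other chromosomes, had medians of 0.953 and 1.08. Pafah1b1 (chr11:74673949-74724670), the dynein regulator LIS1, was low in all 6 at 0.648 (0.445 to 0.714). Arhgdia (chr11:120578104-120581624), a regulator of the cytoskeleton, had 0.679 (0.633 to 1.10), with E8 as OPCs the one ratio above 1.

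Actg1 (chr11:120345690-120348542), cytoplasmic gamma actin, stayed near the other clones at a median of 0.976 (0.795 to 1.14). Actg1 read 436, 431, 508, 559, 506 and 536 at the OPC stage, 627, 564, 805, 721, 677 and 811 at DIV2 and 290.4, 404, 434, 469.5, 386 and 548 at DIV4. Only D3 at DIV2 was low, and at DIV4 D7 had the lowest level of all. Actb, its relative on chromosome 5, had a median of 1.22. Flot2 (chr11:78037931-78060434), a scaffold of membrane microdomains, had the highest median, 1.23 (0.954 to 1.37). Flot2 read 6.25, 6.60, 5.15, 4.49, 7.14 and 3.70 at the OPC stage, 7.33, 7.47, 7.37, 4.99, 6.05 and 5.61 at DIV2 and 5.76, 6.14, 8.51, 5.35, 8.41 and 5.39 at DIV4. At DIV2 D3 and E8 were the highest clones, by little over D7, and 3F was the lowest. Flot1, its partner on chromosome 17, had a median of 1.18.

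**Figure D3:**
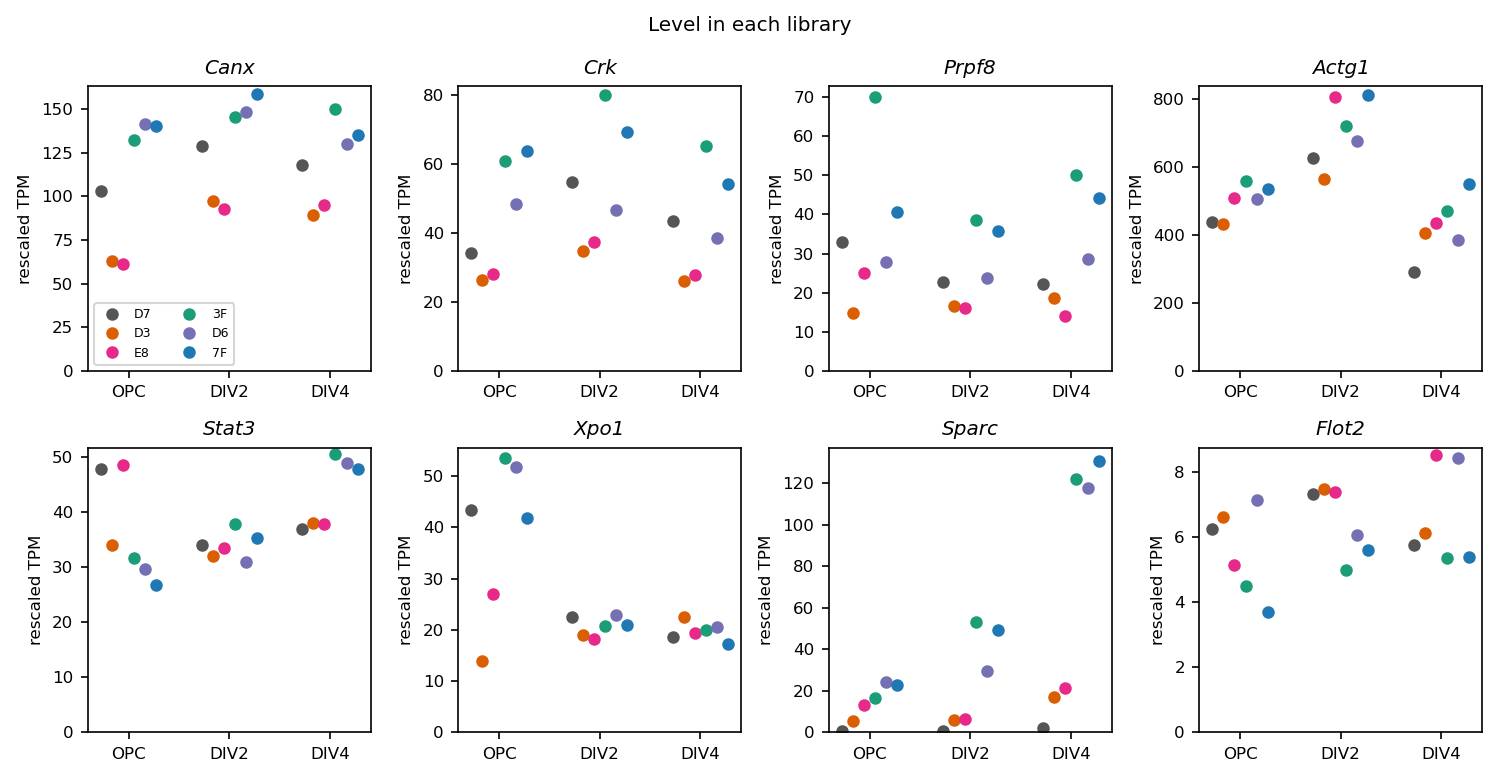
Rescaled TPM (linear axes from 0) of 8 of the genes in each of the 18 libraries, by stage, with 1 point per library coloured by clone. Canx, Crk and Prpf8 have D3 and E8 as the lowest points at every stage. Actg1, Stat3 and Flot2 do not, Xpo1 does as OPCs and at DIV2, and Sparc is lowest in D7.

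All 4 genes of protein degradation and autophagy were low in at least 4 ratios. Sqstm1 (chr11:50199366-50210827), the autophagy receptor p62, was low in all 6 at 0.508 (0.488 to 0.765). Sqstm1 read 38.4, 46.1, 29.4, 55.3, 69.6 and 77.7 at the OPC stage, 87.2, 77.4, 67.5, 155, 145 and 133 at DIV2 and 107, 68.4, 69.2, 161, 139 and 148 at DIV4. As OPCs D7 (38.4) lay between E8 and D3, and at DIV2 and DIV4 D3 and E8 lay below D7, which lay below the null clones. Grn (chr11:102430315-102437048), the lysosomal protein progranulin, had 0.639 (0.448 to 1.24). Grn read 8.92, 10.6, 7.74, 8.12, 7.91 and 9.15 at the OPC stage, 13.5, 13.7, 11.7, 27.3, 18.2 and 20.5 at DIV2 and 28.4, 14.3, 12.3, 28.4, 27 and 26.4 at DIV4. At DIV2 D7 lay with D3 and E8, while at DIV4 D7 lay with the null clones. Spop (chr11:95414080-95493406), a substrate adaptor of the CUL3 ubiquitin ligase, was low in all 6 but close to the limit, 0.812 (0.552 to 0.829). Spop read 8.45, 5.99, 9.0, 12.5, 10.5 and 12 at the OPC stage, 18.2, 12.3, 12.8, 14.4, 14 and 15.1 at DIV2 and 23.4, 14.2, 10.6, 13.1, 16 and 16.3 at DIV4. At DIV4 D7 was the highest and D3 lay above 3F. Nfe2l1 (chr11:96817414-96829968), the transcription factor that raises proteasome genes, had 0.784 (0.614 to 1.07), and against D7 its median was 1.02.

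Sparc, a secreted glycoprotein of the extracellular matrix (chr11:55394500-55423183), had the lowest median of all 41, 0.214 (0.183 to 0.814), yet D7 and not D3 or E8 was its lowest clone. Sparc read 0.813, 5.50, 13.2, 16.6, 24.4 and 22.9 at the OPC stage, 0.918, 6.21, 6.68, 53.1, 29.7 and 49.6 at DIV2 and 2.20, 17, 21.3, 122, 118 and 131 at DIV4. The null clones were highest at every stage, and D3 and E8 lay between them and D7, at a median of 7.51 times D7. The astrocyte markers were also lowest in D7 at DIV4 (1.64), but higher in E8 (315) and D3 (131) than in 3F (85.5) and D6 (88.4); their part in the Sparc levels was not tested.

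Nme1 (chr11:93956979-93968521) and Nme2 (chr11:93949814-93956259) are neighbouring, closely related nucleoside diphosphate kinases, which balance the cell's nucleotide pools. Nme2 had a median of 0.473 (0.398 to 0.893) and Nme1 0.631 (0.435 to 0.836). Nme2 read 172, 76.8, 77.1, 165, 232 and 202 at the OPC stage, 81.4, 46, 55.2, 107, 123 and 116 at DIV2 and 65.9, 49.7, 75.8, 91.7, 93.5 and 88.4 at DIV4. Nme1 read 100, 52.2, 95.3, 106, 144 and 130.4 at the OPC stage, 81.2, 49, 56.3, 80.1, 108 and 89.1 at DIV2 and 47.8, 32.4, 42.7, 51.2, 52.8 and 52.6 at DIV4. Both were low in 5 of 6 ratios, with E8 at DIV4 the exception. Vdac1 (chr11:52360860-52389397), the main pore of the outer mitochondrial membrane, was low in all 6 at 0.698 (0.546 to 0.763), where Vdac2 and Vdac3 had medians of 0.997 and 1.04. Sumo2 (chr11:115523102-115536276), a ubiquitin-like modifier, had 0.832 (0.460 to 1.29). Sumo2 read 59.6, 22.3, 35.1, 35.3, 60.2 and 39.2 at the OPC stage, 36.3, 30.2, 22.9, 25.3, 35.9 and 24.1 at DIV2 and 21, 21.1, 29.9, 24.6, 26.6 and 20.7 at DIV4. D3 and E8 were the lowest as OPCs and overlapped the other clones later. Its relative Sumo3, on another chromosome, had a median of 0.987.

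Over all listed partner genes, which include relatives of the members as well as partners, 98 on other chromosomes passed the filter. Of them 14, 7 and 8 were low in both D3 and E8 as OPCs, at DIV2 and at DIV4. Among all genes on other chromosomes 14.2%, 12.9% and 15.7% were, so the partner counts lie near or below those shares and nothing is read from them. Of the 98, 10 were low in at least 4 of 6 ratios. Of the 8 partners that lie on chromosome 11, 6, 6 and 4 were low in both clones at the 3 stages, where 45.4%, 68.0% and 68.8% of the non-member chromosome 11 genes were. Sequence shared with other genes can move reads between copies. For 8 members at least 10% of the gene's 31-base words also occur in another gene's transcripts, so their values are uncertain: Eif4a1 (67.5%), Nme2 (47.9%), Actg1 (47.2%), Sumo2 (32.0%), Ddx5 (28.4%), Stat5b (15.3%), Grb2 (12.1%) and Nme1 (11.7%). Of these, 6 were low in at least 4 ratios, with a median over genes of 0.698. Of the other 33 members 29 were, with a median of 0.681.

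Along the chromosome, one interval read differently in clones 3F and 7F. It runs from 74 to 80 Mb, was chosen after its values were seen, and holds 9 members (Pafah1b1, Prpf8, Myo1c, Crk, Ywhae, Taok1, Flot2, Supt6 and Nf1) and 66 other tested genes. The 66 other genes had a median of 1.66, 1.85 and 1.72 times D7 in 3F and 1.45, 1.61 and 1.53 times D7 in 7F as OPCs, at DIV2 and at DIV4. In D6 the medians were 0.990, 1.12 and 1.17. Outside the interval, the 734 other chromosome 11 genes stood in 3F at 0.991, 1.09 and 1.03 times D7 and in 7F at 0.992, 1.03 and 1.02. Among these, the 26 genes from 30 to 40 Mb also read above D7 at DIV2 and DIV4, in D6 as well. Their medians were 1.35 and 1.44 times D7 in 3F, 1.38 and 1.37 in D6 and 1.25 and 1.42 in 7F.

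The members of the interval showed the same difference, with medians of 1.72, 1.46 and 1.51 times D7 in 3F and 1.35, 1.27 and 1.25 in 7F. Supt6 in 3F was 1.72, 2.06 and 2.14 times D7, and Taok1 2.85, 1.66 and 1.73 times. Flot2 in 3F went the other way at 0.718, 0.681 and 0.929 times D7, and Nf1 was higher only as OPCs (2.20, 0.797 and 0.859). Clones 3F and 7F are in the mean that D3 and E8 are divided by. Relative to that mean the median of the 9 members was 0.547 and that of the 32 members outside 0.684. Against D7 alone the medians were 0.720 and 0.735. Of the 6 lowest genes named above, Myo1c, Supt6 and Prpf8 lie in the interval.

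**Figure D4:**
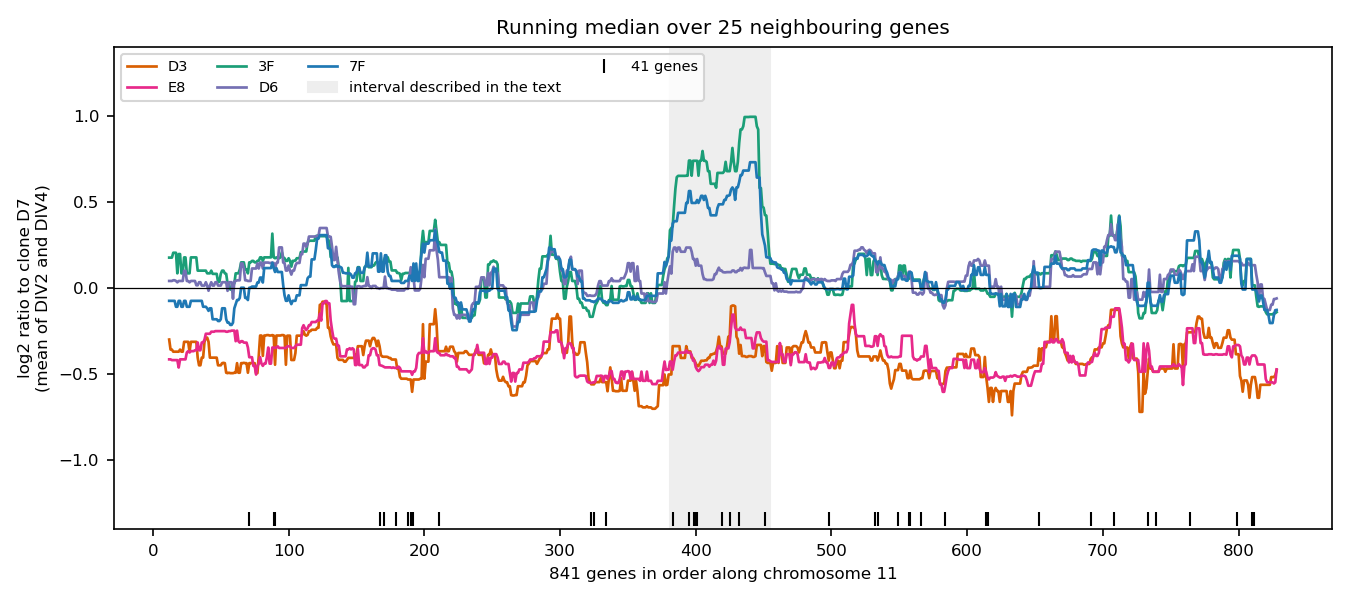
Log2 ratio to clone D7 (mean of DIV2 and DIV4) along 841 tested chromosome 11 genes in order, as a running median over 25 genes, with 1 line per clone. The D3 and E8 lines lie below 0 along the whole chromosome, the 3F and 7F lines reach their highest points within the shaded interval, and the ticks mark the 41 genes.

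Differentiation changed some of the 41 genes, in a comparison that did not enter their choice. From OPC to DIV2 in the control clones, 10 members rose (21.3% of all tested genes did) and 5 fell (18.7%). From OPC to DIV4, 7 rose (19.2%) and 6 fell (17.7%). In the null clones 3 rose (17.7%) and 5 fell (15.6%) at DIV2, and 6 rose (19.7%) and 8 fell (18.7%) at DIV4. Calls are limma tests on log2(rescaled TPM + 1) with a Benjamini-Hochberg adjusted p under 0.05 over all 10400 genes. The shares lie near or below those of all genes and are not a result about the set as a group. With the clone as a block the counts were 23 (45.1% of all genes) and 20 (42.6%) in control and 15 (38.3%) and 19 (43.4%) in null. The DIV2 and DIV4 comparisons of a genotype share its OPC libraries.

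The autophagy receptor gene Sqstm1 rose in both genotypes at both times, with log2 changes of 1.02 (SE 0.20, adjusted p = 0.000978) and 1.08 (SE 0.20, adjusted p = 0.000874) in control and 1.09 (SE 0.20, adjusted p = 0.000725) and 1.15 (SE 0.20, adjusted p = 0.000378) in null by limma. Every clone's DIV2 and DIV4 level given above was higher than its OPC level. Grn rose in the null clones, at DIV2 by 1.28 (SE 0.23, adjusted p = 0.000721) and at DIV4 by 1.59 (SE 0.23, adjusted p = 9.76e-05), and in control at DIV4 by 0.86 (SE 0.23, adjusted p = 0.00941). In control, Actr2 had risen at DIV2 by 0.86 (SE 0.19, adjusted p = 0.00303) and Spop at DIV4 by 0.90 (SE 0.23, adjusted p = 0.00642). In null at DIV4 Sparc rose by 2.50 (SE 0.74, adjusted p = 0.0144), a call that ended when 3F, D6 or 7F was left out (adjusted p = 0.109, 0.0781 and 0.0965). That fit leaves standing differences between clones in the SE. With the clone as a block the SE was 0.25 (limma adjusted p = 3.09e-05). Every null clone's Sparc level given above was higher at DIV4 than as OPCs. The astrocyte marker sums of the null clones were 8.26 to 12.1 as OPCs and 85.5 to 141 at DIV4 beside the Sparc rise.

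Hnrnpab and Srsf2, which act on new RNA, fell in both genotypes by DIV4. Hnrnpab had, by limma, a log2 change in control of -1.20 (SE 0.28, adjusted p = 0.00420) and in null one of -1.03 (SE 0.28, adjusted p = 0.00887) at DIV4. Srsf2 changed by -1.07 (SE 0.24, adjusted p = 0.00332) and -1.20 (SE 0.24, adjusted p = 0.00109) there, and in null at DIV2 by -0.85 (SE 0.24, adjusted p = 0.0123). In null, Xpo1 changed at DIV2 by -1.15 (SE 0.27, adjusted p = 0.00402) and at DIV4 by -1.30 (SE 0.27, adjusted p = 0.00131); Nme1 changed at DIV4 by -1.25 (SE 0.24, adjusted p = 0.000854). In control at DIV2, Stat5b changed by -0.95 (SE 0.15, adjusted p = 0.000282) and Cbx1 by -0.91 (SE 0.28, adjusted p = 0.0170). The summed proliferation genes read 303 to 334 as null OPCs and 6.61 to 16.2 after 4 days. In control they went from 331 to 16 in D7 and from 249 to 26.9 in E8, but only from 20.9 to 16.7 in D3, where Hnrnpab read 74.2 and 37.2. Their part in the changes was not tested. At DIV4, 8 members were called in both genotypes and in the same direction (61.5% of the 13 control and 57.1% of the 14 null calls): Cct4, Eif5a, Grn, Hnrnpab, Nme1, Prkar1a, Sqstm1 and Srsf2. Over all genes 21.9% were, which is 59.4% of the control and 56.9% of the null calls, so the members' overlap is near that of all genes.

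Some of these calls depended on the setting. Fitting only the 6 libraries compared called 6 and 0 members in control at DIV2 and DIV4 and 14 in null at DIV2. Over all genes it called 1366 higher and 991 lower in control at DIV2 and 227 and 121 at DIV4. In null at DIV2 these were 2324 and 2077. The main fit had called 2212 and 1948, 1992 and 1841, and 1841 and 1625. Without E8 control DIV2 gave 8. Null DIV2 gave 3 without 3F, 5 without D6, 4 without 7F and 14 without D7, and null DIV4 gave 8 without D6 or 7F. Over all genes, control DIV2 without E8 gave 1432 higher and 1208 lower. Null DIV2 gave 806 and 783 without 3F and 2172 and 1904 without D7. In all the fits of this paragraph so far, member and all-gene counts moved in the same direction from the main fit. Under the TPM as deposited, all genes shifted by a median of 1.99 (DIV2) and 2.03 (DIV4) log2 units in control, all 41 members read higher there, 40 of them past the threshold, and Stat5b, Cbx1, Hnrnpab and Srsf2 changed sign. Relative to the shift they stood at -1.06, -0.76, -0.52 and -0.42.

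**Figure D5:**
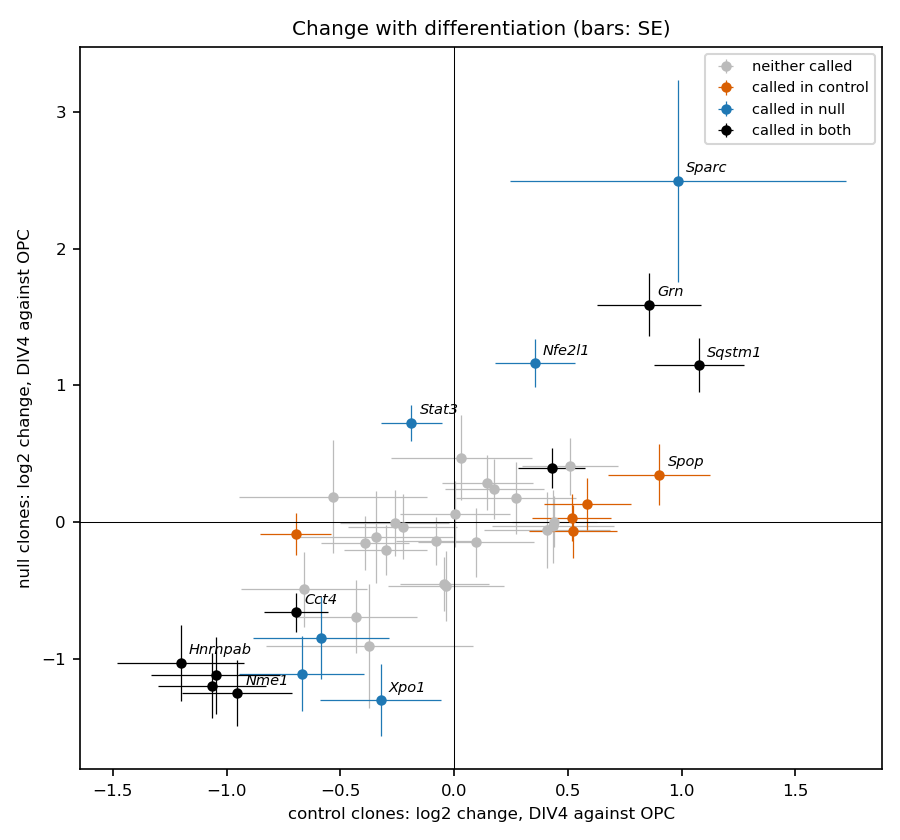
Log2 change from OPC to DIV4 of the 41 genes in the control clones (horizontal axis) and the null clones (vertical axis), with bars of 1 SE and colours for the limma calls. Sqstm1 and Grn lie high in both, Hnrnpab and Nme1 low in both, and Stat3 lies above 0 only in the null clones.

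The change to DIV4 differed between the genotypes for 1 member, Stat3, which 1.65% of all genes did upwards and 1.26% downwards. Stat3 went from 47.8, 34.1 and 48.6 to 36.9, 38 and 37.9 in the control clones, and from 31.6, 29.7 and 26.8 to 50.6, 49 and 47.9 in the null clones. The null change exceeded the control change by 0.91 (SE 0.19, adjusted p = 0.0266) on the log2 scale by limma; DIV4 was above OPC in all 3 null clones and in D3, and below it in D7 and E8. The call ended without E8, 3F, D6 or 7F (adjusted p = 0.0920, 0.110, 0.108 and 0.276) and when only the 4 groups were fitted (0.115). Under the TPM as deposited, where all genes shifted by -1.63, the value turned to -1.25, which is 0.38 above that shift. With the clone as a block 2 members were called, Stat3 and Sparc (5.58% of all genes). At DIV2 limma called 0 members (0.202% of all genes upwards and 0.0769% downwards) and 0 with the block (0.913% of all genes). An unadjusted limma p under 0.05 was found for 5 (Actr2, Grn, Stat3, Stat5b and Xpo1). The share of all genes at that threshold was not counted, so nothing is read from these 5.

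The comparison of the 3 null with the 3 control clones shares D3 and E8 with the choice of the genes, so nothing is read from its counts. By limma 11 members were higher in null at the OPC stage (5.92% of all genes) and 1 lower (5.95%), 2 were higher (1.93%) and 0 lower (1.25%) at DIV2, and 4 were higher (3.14%) and 0 lower (2.35%) at DIV4. The called members at DIV4 were Cct4, Nfe2l1, Sparc and Sqstm1. Leaving out D7 raised the counts to 25, 6 and 19 members. Leaving out D3 gave 7 at the OPC stage, and leaving out D6 gave 6. Leaving out E8 gave 2, 1 and 2, leaving out 3F gave 3, 0 and 0, and leaving out 7F gave 0 at each stage. Calls over all genes changed as well. As OPCs 616 genes were higher and 619 lower in the main fit. Without D7 these were 1139 and 1050, and without 7F 70 and 109. Without D3 they rose to 1017 and 861, where the member count fell.

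The null clones were also set against D7 alone, without D3 and E8. This fit has 1 control library per stage, which is assumed to vary like the null clones. At the OPC stage 3 members were higher in null (4.24% of all genes) and 2 lower (4.36%), at DIV2 1 was higher (2.62%) and 0 lower (2.67%), and at DIV4 5 were higher (12.6%) and 2 lower (14.8%). These counts are small and are not read as a result about the set. Sparc was higher at each stage, by 3.60, 4.51 and 5.28 log2 units by limma. These are differences from D7 and not from the control group. Sparc read 0.813 in D7, 5.50 in D3 and 13.2 in E8 as OPCs, and 2.20, 17 and 21.3 at DIV4. Nfe2l1 was higher at DIV4 by 1.37 by limma, with 11 in D7 against 29 to 30.7 in the null clones. It read 20.1 in D3 and 15.5 in E8 there. As OPCs, Actr2 and Sqstm1 were also higher and Stat3 and Stat5b lower. At DIV4 Actg1, Cct4 and Stat5b were higher and Ppp2ca and Spop lower.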

How the data were processed

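The data were RNA-seq of 6 mouse oligodendrocyte progenitor clones at 3 stages (total RNA, stranded library with ribosomal RNA removal, per the labels' protocols). The authors deposited TPM for 93666 transcripts, which sums to the same total in every library; depth is unknown, and the submitters' processing notes name mm10, STAR and Picard without roles. Biotype and gene name were read from the deposited table; 25 gene names that a spreadsheet had turned into dates were restored through transcript IDs, and 96.5% of transcripts matched GENCODE M21.

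TPM of 47103 protein-coding transcripts were summed by gene name and divided by median-of-ratios factors from 12320 genes expressed in all libraries. Genes with a mean of at least 1 were kept. Tests used limma 3.58.1 (R 4.3.3) on log2(rescaled TPM + 1), with 1 mean for each genotype and stage, 9 comparisons, each with Benjamini-Hochberg adjustment over 10400 genes, and a threshold of 0.05; fold changes on that scale understate those of low genes. Ratios, counts and figures used Python 3.11.15, numpy 2.4.6, pandas 2.3.3 and matplotlib 3.10.9. The limma step was checked on simulated data. The members and lists were chosen with earlier results of these data known. Genes given in full were the 6 highest and 6 lowest median ratios, Nme1 and Nme2, and up to 2 largest called changes per direction and stage comparison; partner genes are the first 3 of a list (all 5 for Ywhae), of which some are not reported here; not every list is given. D3 and E8 were assumed higher when the counts were planned; the count of low genes, the interval and the counts without OPC libraries were added after the data were seen. Same-named libraries were taken as one clone. Their deviations from the group means correlated at 0.285 on average (0.0258 to 0.653, 18 pairs) and at -0.140 between clones (36 pairs). Deviations within a group cancel out, so the second value follows largely from the first and is no separate support. Alternatives were other scalings, transcripts, references, pseudocounts (0.1) and filters (5 or none), the clone block, a fit to the groups compared, and leaving out each clone.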

Additional observations from a re-analysis of the deposited data

Results flagged for a closer look

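Stat3, the cytokine-activated transcription factor, was the one gene of the 41 whose change from OPC to DIV4 differed between the null and control clones by a test of the difference itself. The difference was 0.91 on the log2 scale (SE 0.19, limma adjusted p = 0.0266), and leaving out E8, 3F, D6 or 7F ended the call.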

How the results depend on the processing

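Of the alternative values of the ratios and counts, 200 stayed within the spread or within 1.5 times the count and 100 did not; of those of single genes, 254 kept call and direction, 29 lost the call and 5 turned sign. Except where a fit holds fewer libraries, the cause was not tested. With the TPM as deposited, the members' median ratio in D3 and E8 was 0.211 and 0.105 as OPCs, 0.879 and 0.837 at DIV2, and 1.06 and 1.02 at DIV4. The genes low in both were then 13 at DIV2 and 6 at DIV4, those high in both 2 and 7. That scaling called 41, 1 and 1 members between null and control at the 3 stages, 40 and 40 in control and 3 and 6 in null with stage, and 39 and 37 in the interactions. Over all genes it called 9367 higher and 22 lower in null OPCs. It turned Stat5b to 0.93, Cbx1 to 1.23, Hnrnpab to 1.51, Srsf2 to 1.61 and the Stat3 interaction to -1.25. Protein-coding TPM set to one total per library gave 0.509 and 0.447 as OPCs, 0.791 and 0.780 at DIV2 and 0.747 in D3 at DIV4, with 26 and 1 members called between null and control at OPC and DIV2, 24 in control at DIV2 (24 higher, 0 lower) and 0 in the DIV4 interaction. Quantile normalization gave 0.634 and 0.832 as OPCs, with 19 low in both, 0.769 in D3 at DIV2, 0.717 and 0.611 at DIV4, and 4 and 17 null calls at DIV2 and DIV4. Factors without chromosome 11 gave 0.682 and 0.744 at DIV2. Against D7 alone the ratios were 0.674 and 0.762 as OPCs, 0.749 in D3 at DIV2 and 0.728 in D3 at DIV4, with 1 and 4 members high in both as OPCs and at DIV4. Against the null clones E8 was 0.646 as OPCs, and D3 and E8 0.683 and 0.785 at DIV2. Fits to only the groups compared called 0, 4 and 0 members between null and control, 6 and 0 in control, 14 in null at DIV2 and 0 in the DIV4 interaction. With the clone as a replicate block the calls were 23 and 20 in control, 15 in null at DIV2 and 2 in the DIV4 interaction, and the other counts stayed within 1.5 times. Without D3 and E8, 5, 1 and 7 were called between null and D7. Without a filter the calls were 1 between null and control at DIV2 and 5 in null at DIV2. Over all transcripts they were 4 in null at DIV2 and 0 in the DIV4 interaction, and 0 members were high in both at DIV2.

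Leaving out each clone in turn gave D3 ratios of 0.550 to 0.596, 0.683 to 0.716 and 0.664 to 0.680 at the 3 stages and E8 ratios of 0.646 to 0.715, 0.735 to 0.785 and 0.643 to 0.669. The genes low in both were 27 to 29, 26 to 28 and 28 to 31, and those high in both at DIV2 0 to 1. Calls ran from 0 to 25, 0 to 6 and 0 to 19 between null and control, 8 to 17 and 9 to 13 in control, 3 to 14 and 8 to 18 in null, and 0 to 1 and 0 to 3 in the interactions. Between null and control OPCs, calls over all genes ran from 70 higher and 109 lower to 1139 and 1050. A fit left with few libraries assumes that they vary like the other groups. Each clone gave 1 library per stage, depth is unknown, and DNA was not measured, so the ratios carry no counting error and no copy number.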

Other observations

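Stretches on other chromosomes also read differently in clones 3F and 7F. Values are medians over genes of log2(rescaled TPM + 1), averaged over the 3 stages, relative to the median of the 6 clones. On chromosome 12, the 25 genes from 60 to 70 Mb read 0.91 in 3F and 0.53 in 7F, with D7 at -0.067. The 41 genes from 100 to 110 Mb read -0.71 and -0.39, with D7 at 0.15, and the 43 from 110 to 120 Mb read -0.73 and -0.40, with D7 at 0.077. On chromosome 8, the 70 genes from 80 to 90 Mb read 0.42 in 3F and 0.30 in 7F, with D7 at -0.021. These stretches were picked by their values, and no test was made.

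Kpna2, an importin adaptor that lies on chromosome 11 but is no member of the set, had a median ratio in D3 and E8 of 0.107, below that of any of the 41 genes.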
